A study of Mus musculus with 16 samples.

Results

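The 40 genes described here are transcripts that cells raise in response to interferons. They were taken by symbol from a list of interferon response genes, and all 40 were found among the 52636 genes of the deposited count table. All 40 also passed the filter on low counts, as did 19646 genes in total. The filter was applied over all 6 groups, so a gene high in a single group could also pass it. They were set apart as 11 GTPase genes (7 guanylate-binding proteins of the p65 family and 4 p47 GTPases) and 29 other genes, which include 4 Ifit and 4 Oas genes.

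Gene-level counts came from polyadenylated RNA of mouse endothelial cells of liver, lung and heart. Cells were sorted as live, CD45-negative, CD31-positive and VE-cadherin-positive after antibody against VE-cadherin had been given to the living animal. The animals carried the label Erg and Fli1 double knockout, here KO-labelled, or Wild Type, here control, and the cells were collected at day 10 after tamoxifen. Liver and lung had 3 KO-labelled and 3 control libraries each, and heart had 2 KO-labelled and 2 control libraries. Both genes code for ETS-family transcription factors. The treatment text names tamoxifen without separating the groups. The promoter that drives the recombinase, the strain, the age of the animals and whether each library is 1 animal are not stated by the labels. The p-values therefore measure the spread between libraries, part of which may be technical.

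Interferons bind receptors that carry JAK kinases, and these phosphorylate STAT proteins. Type I interferon acts mainly through a complex that holds Stat2 and Irf9 at the interferon-stimulated response element (ISRE). Interferon gamma acts at the gamma-activated site (GAS) and through Irf1, which binds ISRE-like sequences. Guanylate-binding and p47 GTPases are best known as targets of interferon gamma that act on membranes around intracellular pathogens. Ifit and Oas proteins are known as sensors and effectors against viral RNA.

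Total counts ran from 30226340 to 41449054 per library, and 5 libraries came from males, 1 in each group other than control heart. Erg had 165, 136 and 131 CPM (counts relative to the effective size of the library) in KO-labelled liver and 361, 337 and 371 CPM in control liver. Its log2 change was −1.31 in liver (adjusted p = 1.54e-05), −0.52 in lung (adjusted p = 0.0231) and −0.47 in heart (adjusted p = 0.0538), by edgeR's quasi-likelihood test with Benjamini-Hochberg adjustment, as for all adjusted p-values here. Fli1 counts were not lower in any tissue. They rose in lung (log2 0.69, adjusted p = 0.0131), with log2 changes of 0.38 in liver (adjusted p = 0.1003) and 0.02 in heart (adjusted p = 0.979). Every KO-labelled library lay above every control library for Fli1 in liver and lung. Whole-gene counts include reads outside a deleted part, so the label KO is used as a label throughout. Across genes, the lowest correlation within a group was that of KO-labelled liver libraries 2 and 3 (r = 0.964), and the lowest in the other groups was 0.971 to 0.983. Summed CPM of 10 endothelial markers was 12830 to 18660 in KO-labelled liver against 19270 to 21310 in control liver, 11940 to 15340 against 18810 to 19180 in lung, and 9783 to 11380 against 15410 to 15820 in heart.

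Promoter sequence is shown for 7 members, because the ISRE and GAS letters in it are where the interferon-activated factors are known to bind. The windows are RefSeq's, build GRCm38.p6, written 5′ to 3′ along the gene's strand. Capitals mark matches to the ISRE core (GAAA, any 2 bases, GAAA) or to the GAS letters TTCNNNGAA, on either strand. Gbp2 (chr3:142620533-142620662, plus strand) and Gbp5 (chr3:142496754-142496893, plus strand) stand for the p65 family. Igtp (chr11:58199426-58199555, plus strand) and Irgm2 (chr11:58214847-58214976, plus strand) stand for the p47 family. Ifit1 (chr19:34640759-34640888, plus strand) and Rsad2 (chr12:26456453-26456582, minus strand) are antiviral effectors. Irf1 (chr11:53769884-53770013, plus strand) is the transcription factor of the list whose counts changed least.
Gbp2: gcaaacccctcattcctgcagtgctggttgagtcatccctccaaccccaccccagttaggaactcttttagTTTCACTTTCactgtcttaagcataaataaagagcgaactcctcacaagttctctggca
Gbp5: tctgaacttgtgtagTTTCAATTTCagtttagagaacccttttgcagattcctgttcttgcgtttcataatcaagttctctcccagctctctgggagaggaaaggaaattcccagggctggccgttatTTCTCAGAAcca
Igtp: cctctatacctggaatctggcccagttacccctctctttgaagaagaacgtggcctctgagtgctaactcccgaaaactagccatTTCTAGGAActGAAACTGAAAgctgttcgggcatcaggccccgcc
Irgm2: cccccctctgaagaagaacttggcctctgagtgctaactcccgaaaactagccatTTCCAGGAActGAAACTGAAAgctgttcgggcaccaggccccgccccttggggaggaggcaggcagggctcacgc
Ifit1: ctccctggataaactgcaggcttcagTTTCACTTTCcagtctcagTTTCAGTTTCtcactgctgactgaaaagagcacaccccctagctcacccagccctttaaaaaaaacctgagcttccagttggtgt
Rsad2: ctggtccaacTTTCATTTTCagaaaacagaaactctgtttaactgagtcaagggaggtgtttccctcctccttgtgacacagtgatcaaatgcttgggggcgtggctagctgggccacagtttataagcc
Irf1: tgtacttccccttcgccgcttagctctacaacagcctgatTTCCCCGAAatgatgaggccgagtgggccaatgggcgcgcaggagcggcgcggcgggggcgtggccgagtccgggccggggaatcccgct

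Each printed window ends at the base before the RefSeq start, except that of Gbp5, which ends at base −41. For Irgm2, the 25 bases at the end of the full window were not found in a GENCODE vM21 transcript of the gene, so its start is less certain. Igtp and Irgm2 held a GAS match followed by an ISRE match in the same order and spacing. Irf1 held a GAS match and no ISRE match.

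RefSeq windows of 300 bases (250 before the start and 50 after it) were at hand for 27 of the 40 members. An ISRE match lay in those of 17 members (63%), against 3.99% of 27025 genes with a window. All 7 GTPase genes with a window held one, as did 10 of the 20 other members. A match did not always go with a fall. Cmpk2 held no ISRE match and fell in each tissue, while Oas1a and Bst2 held 2 each and passed in no tissue. Whether a match goes with a change was not tested. A GAS match lay in 9 members (33.3%), against 9.55% of all genes. The letters of an ETS-IRF composite (GGAA, any 2 bases, GAAA) lay in 6 members (22.2%), against 3.16% of all genes, and those in Igtp and Irgm2 overlapped the GAS and ISRE matches. The ETS letters CCGGAAG lay in 3 members (11.1%), Ifih1, Rsad2 and Ifit2, against 9.93% of all genes, and in 0 of the 7 GTPase genes.

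Of the 40 genes, 13 fell in KO-labelled endothelium in all 3 tissues, 5 fell in 2 tissues, 8 fell in 1 and 14 fell in none, and 9 of the 11 GTPase genes fell in each. Of all tested genes, at most the 4.11% that fell in lung can have fallen in all 3 tissues. The shares of all genes by number of tissues were not counted. In KO-labelled liver 23 of the 40 genes fell and 1 (Trim25) rose, where 9.87% of all tested genes fell and 9.54% rose. In lung 16 fell and 0 rose, where 4.11% of all genes fell and 4.35% rose. At an unadjusted p under 0.05, 1 member (Ifi27l2a) was higher in lung, and DESeq2 called 1 higher. In heart 18 fell and 1 (Ifi27l2a) rose, where 9.09% of all genes fell and 10.2% rose. The median log2 change of the 40 was −0.88 in liver, −0.88 in lung and −0.94 in heart, beside medians over all tested genes of 0.02, −0.02 and 0.01. Endothelium was sorted in bulk, so fewer cells with a transcript and less RNA per cell cannot be told apart.

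Every KO-labelled library lay below every control library for 27 members in liver, 27 in lung and 31 in heart, where 19%, 16.1% and 29% of all tested genes did so. Averaged over the tissues, 30 members fell and 2 rose, where 14.1% and 15.2% of all genes did. Single libraries moved the tissue counts: the liver count was 13 without control library 2, 15 without KO-labelled library 1 and 16 without KO-labelled library 3. Without KO-labelled liver library 3 the liver calls of Ifit3, Irf7, Stat2, Ifih1, Zbp1, Ifi44 and Ifi35 ended, with adjusted p from 0.0549 (Ifit3) to 0.1225 (Irf7). Without heart KO-labelled library 1 the median log2 change in heart was −0.60. That fit leaves 1 KO-labelled heart library, from a male, against 2 control libraries that did not come from males. Sex and label cannot be told apart there, and this holds for each heart call said to end without that library. With a term for sex in the fit, 28 fell in liver, 23 in lung and 24 in heart. With each tissue fitted alone, 18 fell in liver, 19 in lung and 23 in heart. The liver calls of Irgm1, Ifit1, Ifit3, Stat2, Ifi44 and Ifi35 ended in that fit, which takes no spread from the other tissues.

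**Figure D1:**
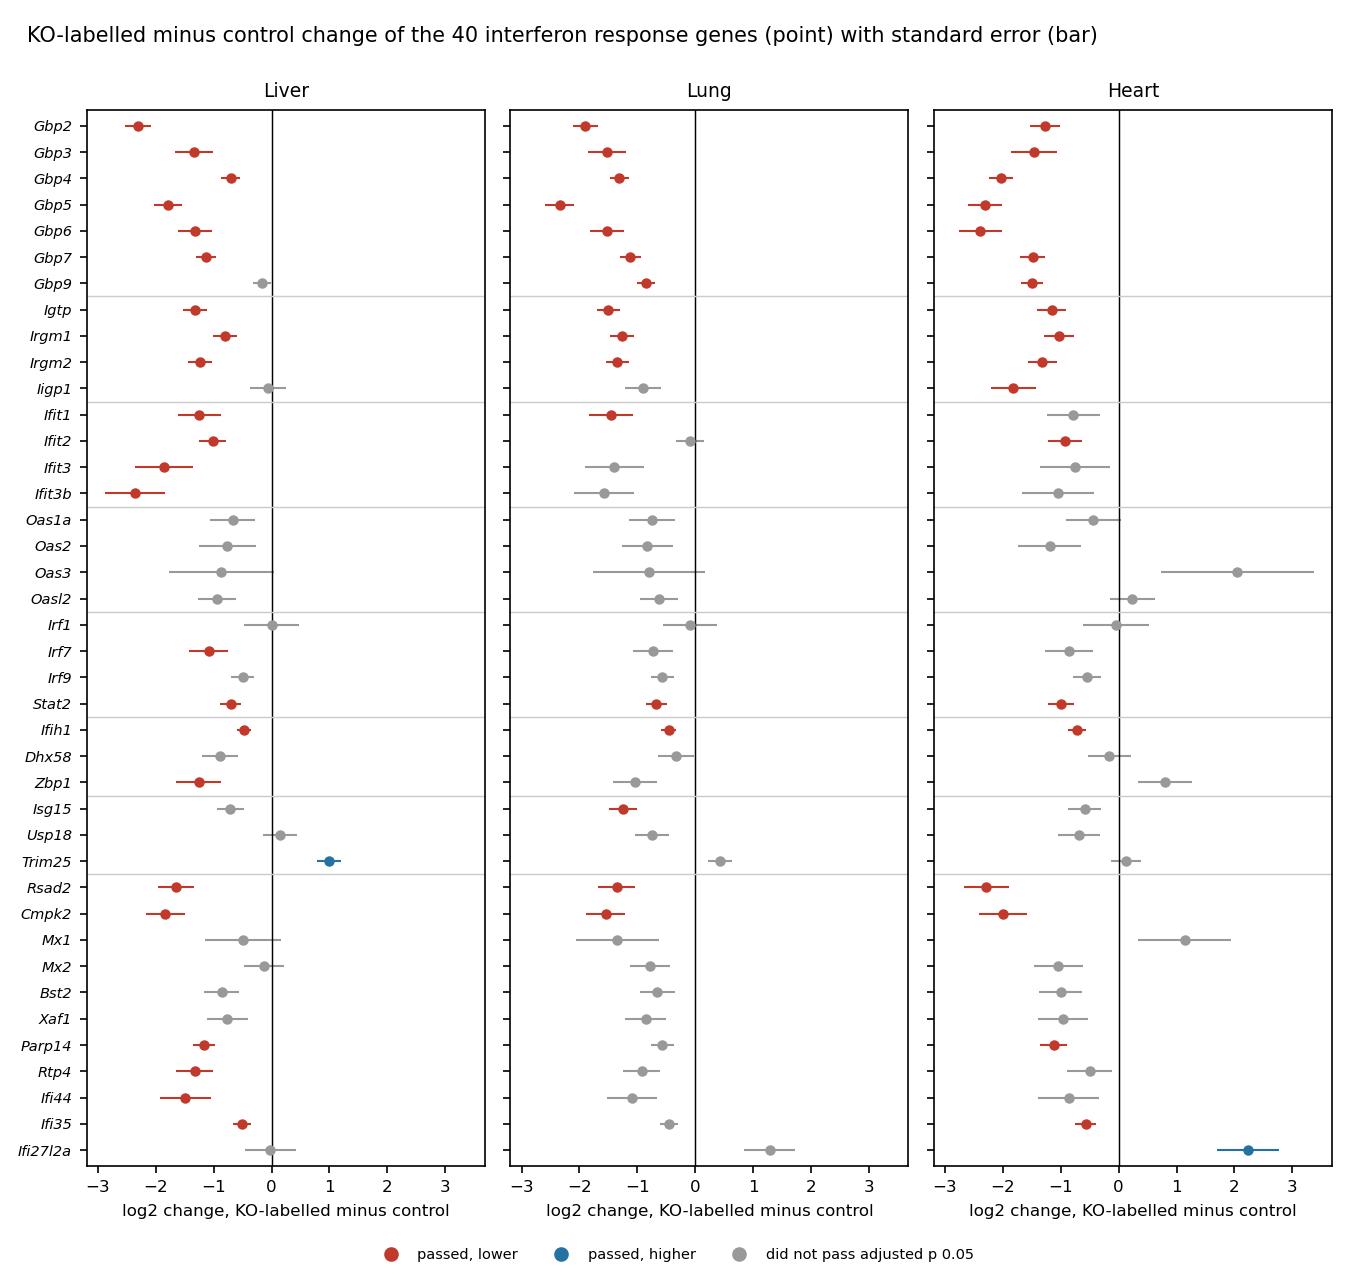
Log2 change (KO-labelled minus control) of each of the 40 genes in liver, lung and heart on 1 shared axis, with points for the estimate and bars for its standard error. Red points passed at adjusted p 0.05 and were lower, blue points passed and were higher, grey points did not pass, and lines part the families; the 11 GTPase genes at the top lie below 0 in each tissue.

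Of the 11 GTPase genes, 9 fell in liver, 10 in lung and 11 in heart, where 9.87%, 4.11% and 9.09% of all genes fell. In all 3 tissues 9 of the GTPase genes fell. Their median log2 change was −1.24 in liver, −1.34 in lung and −1.49 in heart. The guanylate-binding genes lie in 2 groups, Gbp2, Gbp3, Gbp5 and Gbp7 within 144 kb of chromosome 3 and Gbp4, Gbp6 and Gbp9 within 216 kb of chromosome 5 (GRCm38). Their sequences are alike, and reads shared between paralogs could have been counted for either. Gbp6 also shares 29% of its exonic bases with Gm43302, and Gbp7 shares 11.3% with Gm43802.

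Gbp2, a guanylate-binding protein known in mice to be recruited to parasite vacuoles, had 13.7, 11.7 and 18.5 CPM in KO-labelled liver, against 67.4, 78.6 and 71.7 CPM in control liver. Lung libraries had 56.7, 40.8 and 44.8 CPM of Gbp2 in KO-labelled and 216, 161 and 154 CPM in control samples. Heart libraries had 42.9 and 74.1 CPM in KO-labelled and 137 and 146 CPM in control samples. No KO-labelled library reached a control in any tissue. The log2 changes were −2.31 in liver (SE 0.22, adjusted p = 1.05e-05), −1.90 in lung (SE 0.22, adjusted p = 0.000185) and −1.28 in heart (SE 0.26, adjusted p = 0.00415). The heart call ended without KO-labelled library 1.

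Gbp5, linked to inflammasome assembly, had 10.8, 14.5 and 14.7 CPM in KO-labelled and 39.0, 55.6 and 43.9 CPM in control liver. Lung had 15.2, 8.87 and 9.32 CPM of Gbp5 in KO-labelled and 65.2, 56.1 and 48.0 CPM in control libraries. Heart had 18.2 and 30.7 CPM in KO-labelled and 111 and 132 CPM in control libraries. The groups did not overlap, and the log2 changes were −1.79, −2.34 and −2.31 in liver, lung and heart (adjusted p = 0.000172, 0.00011 and 0.000234). Gbp3, Gbp6 and Gbp7 fell in each tissue as well, with log2 changes from −1.12 (Gbp7, lung) to −2.39 (Gbp6, heart). The calls of Gbp3 ended without control library 2 in liver, without control library 1 in lung, and without KO-labelled library 1 or either control library in heart.

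Gbp4 and Gbp9, neighbours on chromosome 5, had smaller changes in liver than in heart. Gbp4 had 95.8, 116 and 110 CPM in KO-labelled and 174, 191 and 159 CPM in control liver, and 94.0 and 104 CPM in KO-labelled and 436 and 374 CPM in control heart. Gbp4 in lung had 115, 74.5 and 91.5 CPM in KO-labelled and 278, 202 and 218 CPM in control libraries. Its log2 change was −0.71 in liver (SE 0.16, adjusted p = 0.00704), −1.31 in lung (SE 0.16, adjusted p = 0.000367) and −2.03 in heart (SE 0.20, adjusted p = 4.64e-05). Gbp9 overlapped in liver, with 163, 172 and 167 CPM in KO-labelled and 188, 211 and 166 CPM in control libraries (log2 −0.17, SE 0.15, adjusted p = 0.476). In lung Gbp9 had 209, 141 and 139 CPM in KO-labelled and 318, 303 and 262 CPM in control libraries (log2 −0.85, adjusted p = 0.00343). In heart it had 146 and 155 CPM in KO-labelled and 453 and 397 CPM in control libraries (log2 −1.50, adjusted p = 0.000194).

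The p47 GTPases Igtp, Irgm1 and Irgm2 are regulators that keep effector GTPases inactive on the cell's own membranes. Igtp and Irgm2 lie within 23.2 kb of chromosome 11 and share 162 exonic bases. Igtp had 13.2, 22.1 and 17.8 CPM in KO-labelled and 45.9, 49.9 and 37.3 CPM in control liver. Lung had 28.8, 31.4 and 24.99 CPM of Igtp in KO-labelled and 91.3, 84.7 and 65.5 CPM in control libraries, and heart had 18.1 and 26.8 CPM in KO-labelled and 50.8 and 49.5 CPM in control libraries. Igtp fell by 1.32 in liver, 1.504 in lung and 1.16 in heart on the log2 scale (adjusted p = 0.000404, 0.00059 and 0.00504). Irgm2, with the same promoter motif order, fell by 1.24, 1.34 and 1.32 (adjusted p = 0.000719, 0.00123 and 0.00262). In liver Irgm2 had 34.5, 60.1 and 37.9 CPM in KO-labelled and 109, 119 and 83.2 CPM in control libraries. In lung it had 48.9, 42.0 and 43.0 CPM in KO-labelled and 123, 111 and 106 CPM in control libraries. In heart it had 22.2 and 31.7 CPM in KO-labelled and 71.9 and 62.4 CPM in control libraries, so neither gene overlapped in any tissue.

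Irgm1 had 48.0, 58.5 and 77.5 CPM in KO-labelled and 98.2, 137 and 86.4 CPM in control liver. It had 30.3, 29.4 and 20.6 CPM in KO-labelled and 70.1, 64.2 and 59.0 CPM in control lung, and 29.5 and 39.7 CPM in KO-labelled and 71.2 and 70.1 CPM in control heart. The groups did not overlap, and Irgm1 fell by 0.81, 1.27 and 1.03 on the log2 scale in liver, lung and heart (adjusted p = 0.0143, 0.00218 and 0.0131). Its liver call ended without control library 2 or KO-labelled library 1, and its heart call without either control library. Iigp1, an effector p47 GTPase loaded onto parasite vacuoles, had 123, 153 and 314 CPM in KO-labelled and 202, 241 and 174 CPM in control liver. KO-labelled liver library 3 held the highest of these values, and the groups overlapped (log2 −0.07, SE 0.31, adjusted p = 0.918). Without that library the log2 change was −0.58 and did not pass. In lung Iigp1 had 84.6, 56.0 and 88.1 CPM in KO-labelled and 178, 131 and 118 CPM in control libraries, which did not overlap and did not pass (log2 −0.90, adjusted p = 0.0945). Iigp1 passed in lung by DESeq2 (adjusted p = 0.0453), with lung fitted alone (adjusted p = 0.0391) and without KO-labelled liver library 3 (adjusted p = 0.0188). In heart it fell, with 40.9 and 64.9 CPM in KO-labelled and 206 and 167 CPM in control libraries (log2 −1.82, SE 0.39, adjusted p = 0.00573). Without heart KO-labelled library 1 the heart calls of Gbp2, Gbp3, Igtp, Irgm1 and Iigp1 ended.

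**Figure D2:**
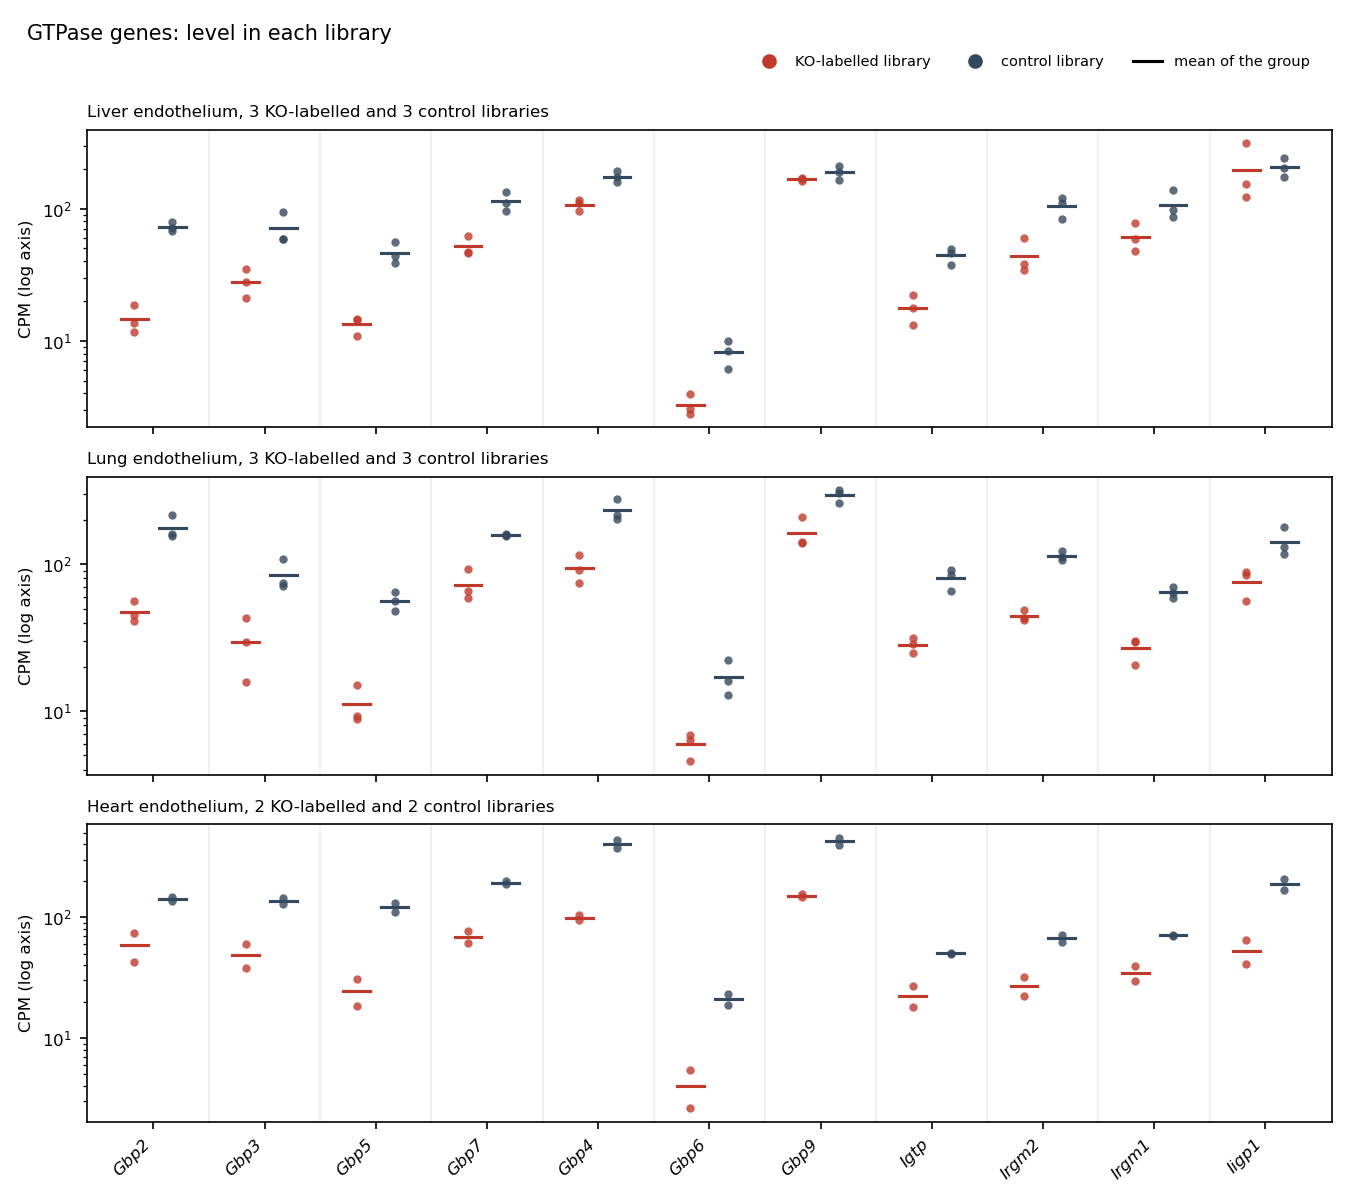
CPM on a log axis of the 11 GTPase genes in each library of liver, lung and heart, with red points for KO-labelled libraries at the left of each gene, dark points for control libraries at its right, and short lines for group means. Red points lie below dark points for each gene in lung and heart, and in liver Gbp9 and Iigp1 overlap.

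Of the 8 Ifit and Oas genes, 4 fell in liver, 1 in lung and 1 in heart, where 9.87%, 4.11% and 9.09% of all genes fell. The heart count is near the background, and the lung count is a single gene. With a term for sex in the fit, Oasl2 also passed in liver (adjusted p = 0.0199), Ifit3 and Ifit3b in lung (adjusted p = 0.026 and 0.0103) and Ifit3b in heart (adjusted p = 0.0148). In the fit of all 16 libraries without added terms the calls were Ifit genes, and 0 of the 4 Oas genes passed in any tissue (at an unadjusted p under 0.05, 1 in liver, 0 in lung and 1 in heart, and 1 in liver by DESeq2). Other alternatives called Oas genes. Oasl2 passed in liver without the low-count filter (adjusted p = 0.0182), and Oas2 in heart with heart fitted alone (adjusted p = 0.0258). With the replicate block by description number Oas1a and Oasl2 passed in lung (adjusted p = 0.0413 and 0.0367). The log2 changes of the Oas genes ran from −1.19 (Oas2, heart) to 2.05 (Oas3, heart). Median log2 change of the 8 was −0.99 in liver, −0.81 in lung and −0.77 in heart. The 4 Ifit genes lie within 99.3 kb of chromosome 19, and Ifit3 and Ifit3b are near copies whose reads can be counted for either gene.

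Ifit1, which binds RNA that lacks the host's cap marks, had 5.70, 12.1 and 12.2 CPM in KO-labelled and 19.1, 32.5 and 19.6 CPM in control liver (log2 −1.25, SE 0.38, adjusted p = 0.0318). Lung had 11.9, 13.6 and 4.73 CPM of Ifit1 in KO-labelled and 27.2, 31.7 and 24.2 CPM in control libraries (log2 −1.46, SE 0.38, adjusted p = 0.0286). In heart it had 11.1 and 19.3 CPM in KO-labelled and 26.7 and 25.6 CPM in control libraries, without overlap but short of the threshold (log2 −0.78, adjusted p = 0.253). The liver call ended without control library 2 or 3 or KO-labelled library 1. The lung call ended without any of 5 single lung libraries, KO-labelled library 2 being the other.

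Ifit2 had 66.0, 74.2 and 45.3 CPM in KO-labelled and 117, 159 and 101 CPM in control liver (log2 −1.02, SE 0.24, adjusted p = 0.0081). It was low in lung in both groups and overlapped, with 9.03, 17.3 and 11.5 CPM in KO-labelled and 15.8, 13.3 and 11.3 CPM in control libraries (log2 −0.09, adjusted p = 0.872). In heart Ifit2 had 47.05 and 53.5 CPM in KO-labelled and 101 and 90.7 CPM in control libraries (log2 −0.93, adjusted p = 0.0395). This heart call ended without any 1 of the 4 heart libraries.

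Ifit3 had 23.7, 49.7 and 11.8 CPM in KO-labelled and 59.7, 164 and 86.5 CPM in control liver (log2 −1.86, SE 0.51, adjusted p = 0.0192). Ifit3b had 5.99, 12.5 and 3.35 CPM in KO-labelled and 22.2, 58.2 and 32.0 CPM in control liver (log2 −2.36, SE 0.52, adjusted p = 0.00581). Control liver library 2 was highest for both genes, and the call of Ifit3 ended without it or without KO-labelled library 1 or 3. In lung and heart neither gene passed, although their groups did not overlap, with log2 changes of −1.39 and −0.75 for Ifit3 and −1.58 and −1.05 for Ifit3b.

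The Oas enzymes make the oligoadenylate messenger that activates RNase L. Oas1a was lower in every KO-labelled than every control library in liver, with 26.2, 26.8 and 12.9 CPM in KO-labelled and 33.9, 43.3 and 28.0 CPM in control libraries (log2 −0.68, SE 0.39, adjusted p = 0.249). Oas2 separated in heart, with 75.5 and 72.6 CPM in KO-labelled and 219 and 119 CPM in control libraries (log2 −1.19, SE 0.54, adjusted p = 0.144). It passed there with heart fitted alone (adjusted p = 0.0258). Oasl2 had 51.2, 73.0 and 27.6 CPM in KO-labelled and 88.3, 132 and 72.5 CPM in control liver (log2 −0.95, SE 0.33, adjusted p = 0.0573), and overlapped. Oas3 was at most 3.25 CPM in any library. Averaged over the tissues, Oas2 passed (log2 −0.93, SE 0.28, adjusted p = 0.0248), and this call ended without heart KO-labelled library 1 or 2 or heart control library 1.

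**Figure D3:**
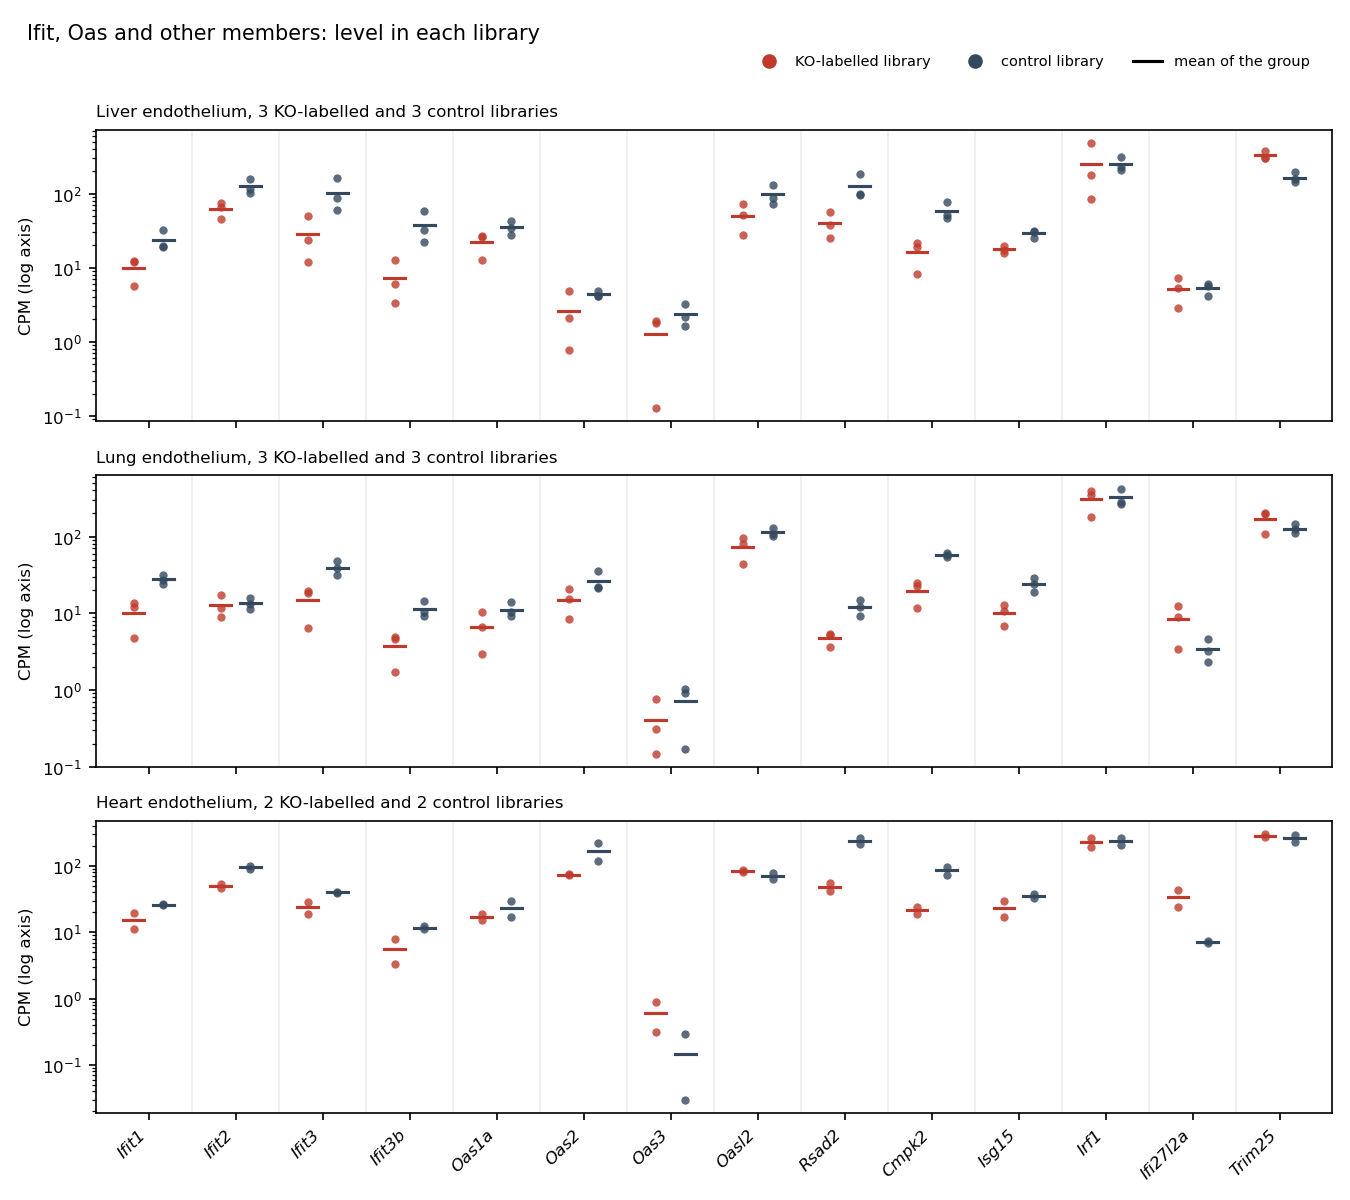
CPM on a log axis of the Ifit and Oas genes and of Rsad2, Cmpk2, Isg15, Irf1, Ifi27l2a and Trim25 in each library, with red points for KO-labelled libraries at the left of each gene, dark points for control libraries at its right, and short lines for group means. A control heart library with 0 counts of Oas3 is drawn at 0.03 CPM, and Rsad2 and Cmpk2 lie lower in KO-labelled libraries in each tissue.

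Rsad2, the enzyme viperin that makes a chain-terminating nucleotide, and Cmpk2, a nucleotide kinase, are neighbours within 37.1 kb of chromosome 12, and both fell in each tissue. Rsad2 had 37.7, 57.1 and 25.5 CPM in KO-labelled and 97.7, 185 and 96.3 CPM in control liver. Lung had far less, 5.41, 5.16 and 3.62 CPM in KO-labelled and 14.8, 12.2 and 9.29 CPM in control libraries, and heart had 42.0 and 56.0 CPM in KO-labelled and 214 and 263 CPM in control libraries. Rsad2 fell by 1.65, 1.35 and 2.28 on the log2 scale in liver, lung and heart (adjusted p = 0.00189, 0.0185 and 0.00127). Cmpk2 had 19.3, 21.6 and 8.17 CPM in KO-labelled and 50.8, 77.8 and 47.3 CPM in control liver. Lung had 22.6, 24.98 and 11.7 CPM of Cmpk2 in KO-labelled and 58.2, 60.2 and 54.9 CPM in control libraries, and heart had 19.0 and 24.1 CPM in KO-labelled and 73.9 and 98.2 CPM in control libraries. Cmpk2 fell by 1.84, 1.55 and 1.998 (adjusted p = 0.00165, 0.011 and 0.00459), and the groups of both genes were apart in every tissue. The lung call of Rsad2 ended without KO-labelled library 3 or control library 1 or 2, and the heart call of Cmpk2 without KO-labelled library 1.

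Among the signalling factors, Stat2 fell in each tissue, by 0.70 in liver, 0.67 in lung and 0.99 in heart on the log2 scale (adjusted p = 0.0141, 0.0349 and 0.00743). Stat2 had 93.3, 132 and 86.3 CPM in KO-labelled and 158, 210.0 and 138 CPM in control liver, 110.1 ± 9.28 CPM in KO-labelled and 175 ± 22.1 CPM in control lung (mean ± SD, n = 3 each), and 128 and 124 CPM in KO-labelled and 282 and 219 CPM in control heart. The groups did not overlap, and the lung call ended without any 1 of the 6 lung libraries. The liver call of Stat2 ended without control library 2 or KO-labelled library 1 or 3, and the heart call without KO-labelled or control library 1. Irf7, which drives later waves of type I interferon, fell in liver (log2 −1.09, SE 0.34, adjusted p = 0.0381), with 59.8, 75.9 and 35.1 CPM in KO-labelled and 99.9, 161 and 103 CPM in control libraries. The liver call of Irf7 ended in 6 of 23 alternatives (adjusted p up to 0.158), among them leaving out control library 2 or 3 or KO-labelled library 1 or 3. With a term for sex Irf7 passed in lung and heart too (adjusted p = 0.0402 and 0.00701). Irf9, the partner of Stat2, had log2 changes of −0.50, −0.57 and −0.55 and passed in no tissue, though its groups did not overlap in any. It passed in heart with a term for sex (log2 −0.69, adjusted p = 0.049).

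Irf1, an early target of interferon gamma, passed in no tissue. It had 179, 85.2 and 485 CPM in KO-labelled and 312, 210.4 and 227 CPM in control liver (log2 −0.00, SE 0.47, adjusted p = 1). KO-labelled liver library 3 held the highest value and KO-labelled library 2 the lowest. Without library 3 the log2 change was −0.92 and did not pass. Lung had 392.4, 178 and 346 CPM of Irf1 in KO-labelled and 423, 267 and 281 CPM in control libraries (log2 −0.08), and heart had 263 and 195 CPM in KO-labelled and 208 and 263 CPM in control libraries (log2 −0.04), with overlap in both.

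Ifih1, the RNA sensor MDA5, fell in each tissue (log2 −0.48, −0.46 and −0.72, adjusted p = 0.0169, 0.0394 and 0.00585). It had 51.4, 52.1 and 40.4 CPM in KO-labelled and 69.0, 71.3 and 60.1 CPM in control liver, 54.6, 50.5 and 46.4 CPM in KO-labelled and 74.7, 71.4 and 62.3 CPM in control lung, and 42.1 and 50.9 CPM in KO-labelled and 82.3 and 71.3 CPM in control heart. The liver call of Ifih1 ended without control library 1 or 2 or KO-labelled library 3, and the heart call without KO-labelled or control library 1. Its lung call ended in 6 of 23 alternatives (adjusted p up to 0.1335), which include leaving out KO-labelled library 2 or 3 or control library 1 or 2. Dhx58, the helicase LGP2, passed in no tissue (log2 −0.89, −0.33 and −0.16), but passed in liver with a term for sex and by DESeq2 (adjusted p = 0.0258 and 0.0205). Zbp1, a sensor of Z-form nucleic acid, fell in liver to 3.45, 4.61 and 1.98 CPM, against 8.14, 8.99 and 6.96 CPM in control libraries (log2 −1.26, SE 0.39, adjusted p = 0.0351), and had log2 changes of −1.03 in lung and 0.81 in heart that did not pass. The liver call of Zbp1 ended without any of 5 of the 6 liver libraries, KO-labelled library 2 being the other (adjusted p up to 0.116).

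Isg15, a ubiquitin-like protein attached to other proteins, fell in lung, with 10.7, 12.9 and 6.88 CPM in KO-labelled and 29.1, 24.1 and 19.2 CPM in control libraries (log2 −1.25, SE 0.24, adjusted p = 0.00626). In liver Isg15 had 17.6, 15.8 and 19.8 CPM in KO-labelled and 30.3, 31.4 and 25.3 CPM in control libraries, and just missed the threshold (log2 −0.71, SE 0.24, adjusted p = 0.0525), which it passed by DESeq2 (adjusted p = 0.0218). In heart it had 16.9 and 29.4 CPM in KO-labelled and 32.4 and 37.2 CPM in control libraries (log2 −0.59, adjusted p = 0.18). Usp18, which removes Isg15, passed in no tissue (log2 0.15, −0.75 and −0.68), but passed in lung and heart with a term for sex (adjusted p = 0.0232 and 0.0154). Trim25, a ubiquitin ligase for the RNA sensor RIG-I, rose in liver to 304, 301 and 376 CPM, against 142, 194 and 157 CPM in control libraries (log2 0.99, SE 0.21, adjusted p = 0.00459).

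Of the other effectors, Parp14, an ADP-ribosyltransferase, fell in liver (log2 −1.17, SE 0.19, adjusted p = 0.000798) and heart (log2 −1.12, SE 0.24, adjusted p = 0.00511). It had 128, 167 and 92.8 CPM in KO-labelled and 313, 327 and 234 CPM in control liver, 159, 133 and 146 CPM in KO-labelled and 225, 234 and 189 CPM in control lung, and 104 and 128 CPM in KO-labelled and 272 and 235 CPM in control heart. Rtp4, a receptor transporter protein, fell in liver to 35.1, 49.7 and 25.8 CPM, against 84.6, 118 and 76.2 CPM in control libraries (log2 −1.33, SE 0.32, adjusted p = 0.00913), and had log2 changes of −0.93 in lung and −0.50 in heart. Ifi44 fell in liver (log2 −1.49, adjusted p = 0.0277), and Ifi35 fell in liver and heart (log2 −0.51 and −0.57, adjusted p = 0.0286 and 0.045). The heart call of Ifi35 ended in 14 of 23 alternatives. The liver calls of Ifi44 and Ifi35 each ended in 5, which include leaving out control library 1 or 2 or KO-labelled library 1 or 3, and the heart call of Parp14 ended without KO-labelled library 1.

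The dynamin-like Mx1 and Mx2, the virion tether Bst2 and the apoptosis factor Xaf1 passed in no tissue. Their log2 changes ran from −1.35 (Mx1, lung) to 1.14 (Mx1, heart), and Bst2 had −0.86, −0.65 and −1.004 in liver, lung and heart. With a term for sex Xaf1 passed in each tissue (adjusted p = 0.023, 0.024 and 0.00317) and Bst2 in liver and heart (adjusted p = 0.0312 and 0.021). DESeq2 also called Bst2 in liver and heart (adjusted p = 0.0219 and 0.0383). Without lung KO-labelled library 2, Mx1 passed in lung (log2 −3.34, adjusted p = 0.00775). Averaged over tissues, Mx2, Bst2 and Xaf1 passed with log2 −0.65, −0.84 and −0.86 (adjusted p = 0.0352, 0.00446 and 0.00883), and the call of Mx2 ended in 12 of 22 alternatives. Ifi27l2a rose in heart, with 23.8 and 43.3 CPM in KO-labelled and 6.88 and 7.37 CPM in control libraries (log2 2.23, SE 0.54, adjusted p = 0.0114). The call ended without heart KO-labelled library 2 or either heart control library.

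Markers of other cells differed between the groups as well. All 8 pan-leukocyte markers rose in KO-labelled heart, with summed CPM of 65.2 to 86.6 in KO-labelled and 8.30 to 17.3 in control libraries. In liver that sum was 92.5 to 128 in KO-labelled and 97.8 to 185 in control libraries, and in lung 21.4 to 56.7 in KO-labelled and 23.9 to 46.6 in control libraries, with 0 of 8 markers passing in each by edgeR, by DESeq2 or at an unadjusted p under 0.05. The 12 markers of T and NK cells summed to 2.07 to 3.21 CPM in KO-labelled and 0.776 to 1.48 CPM in control heart. Lung epithelial markers were lower in KO-labelled lung (303 to 525 CPM, against 1929 to 3144 CPM in control) and higher in KO-labelled heart (101 to 157 CPM, against 5.08 to 5.96 CPM in control). The sum of 7 erythroid and platelet markers was higher in KO-labelled liver (191 to 414 CPM, against 65.9 to 90.2 CPM in control) and KO-labelled lung (116 to 477 CPM, against 46.6 to 57.7 CPM in control). At an unadjusted p under 0.05, 2 of these markers were higher in liver and 6 in lung. Macrophage and neutrophil markers were lower in KO-labelled lung (95.3 to 207 CPM, against 472 to 561 CPM in control) and higher in KO-labelled heart (145 to 252 CPM, against 21.6 to 45.2 CPM in control). The sum of 5 lymphatic endothelial markers was lower in KO-labelled liver (1282 to 2323 CPM, against 3848 to 4393 CPM in control). At an unadjusted p under 0.05, 2 of the 5 were lower and 1 higher. In control heart the sum was only 274 to 296 CPM, and which cells it counts in liver was not tested. The sum of 7 cardiomyocyte markers was higher in KO-labelled lung (20.1 to 159 CPM, against 8.17 to 12.5 CPM in control). At an unadjusted p under 0.05, 1 of these markers was higher in lung and 1 lower. The sum was lower in KO-labelled heart (140 to 166 CPM, against 199 to 311 CPM in control), with 5 of 7 markers lower at that threshold. Hepatocyte marker sums overlapped in liver (596 to 878 CPM in KO-labelled, 759 to 2637 CPM in control), with 3 of 8 markers lower by DESeq2. Fibroblast and mural marker sums overlapped in heart (1447 to 1835 CPM in KO-labelled, 1342 to 1589 CPM in control). B cell and dendritic cell markers summed to under 10 CPM in every library. The part of these shifts in the changes of the interferon genes was not tested.

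The changes of the list, KO-labelled minus control, were then compared between tissues. Between lung and liver 0 of 40 genes differed and between heart and lung 0 of 40 (6.2% and 6.4% of all genes did), while 5 and 5 had an unadjusted p under 0.05 and DESeq2 called 1 and 1. Between heart and liver 3 genes differed, where 8.32% of all genes did, so the count is near the background. All 3 were GTPase genes whose change was more negative in heart. Mean CPM in KO-labelled liver and heart was 107 and 99.2 for Gbp4 and 167 and 150.5 for Gbp9. In control liver and heart it was 175 and 405 for Gbp4 and 188 and 425 for Gbp9. Iigp1 had 197 and 52.9 CPM in KO-labelled and 206 and 186.5 CPM in control liver and heart. The difference of log2 changes, heart minus liver, was −1.32 for Gbp4 (SE 0.26, adjusted p = 0.00645), −1.33 for Gbp9 (SE 0.24, adjusted p = 0.0045) and −1.75 for Iigp1 (SE 0.49, adjusted p = 0.0424). The call of Iigp1 ended in 14 of 23 alternatives, with adjusted p up to 0.167. The comparison rests on 2 heart libraries a group, and DESeq2 called the change of 3 members lower and of 3 members higher in heart.

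Levels per transcript length (TPM) put Bst2 highest of the 40 in every group. It had a mean of 1222 TPM in KO-labelled and 2049 TPM in control liver, 629 TPM in KO-labelled and 972 TPM in control lung, and 364 TPM in KO-labelled and 710.4 TPM in control heart. Mx1 and Oas3 were lowest in each group. Median TPM over the 40 was 36.3 in KO-labelled and 72.0 in control liver, 36.4 in KO-labelled and 63.1 in control lung, and 45.8 in KO-labelled and 79.7 in control heart.

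**Figure D4:**
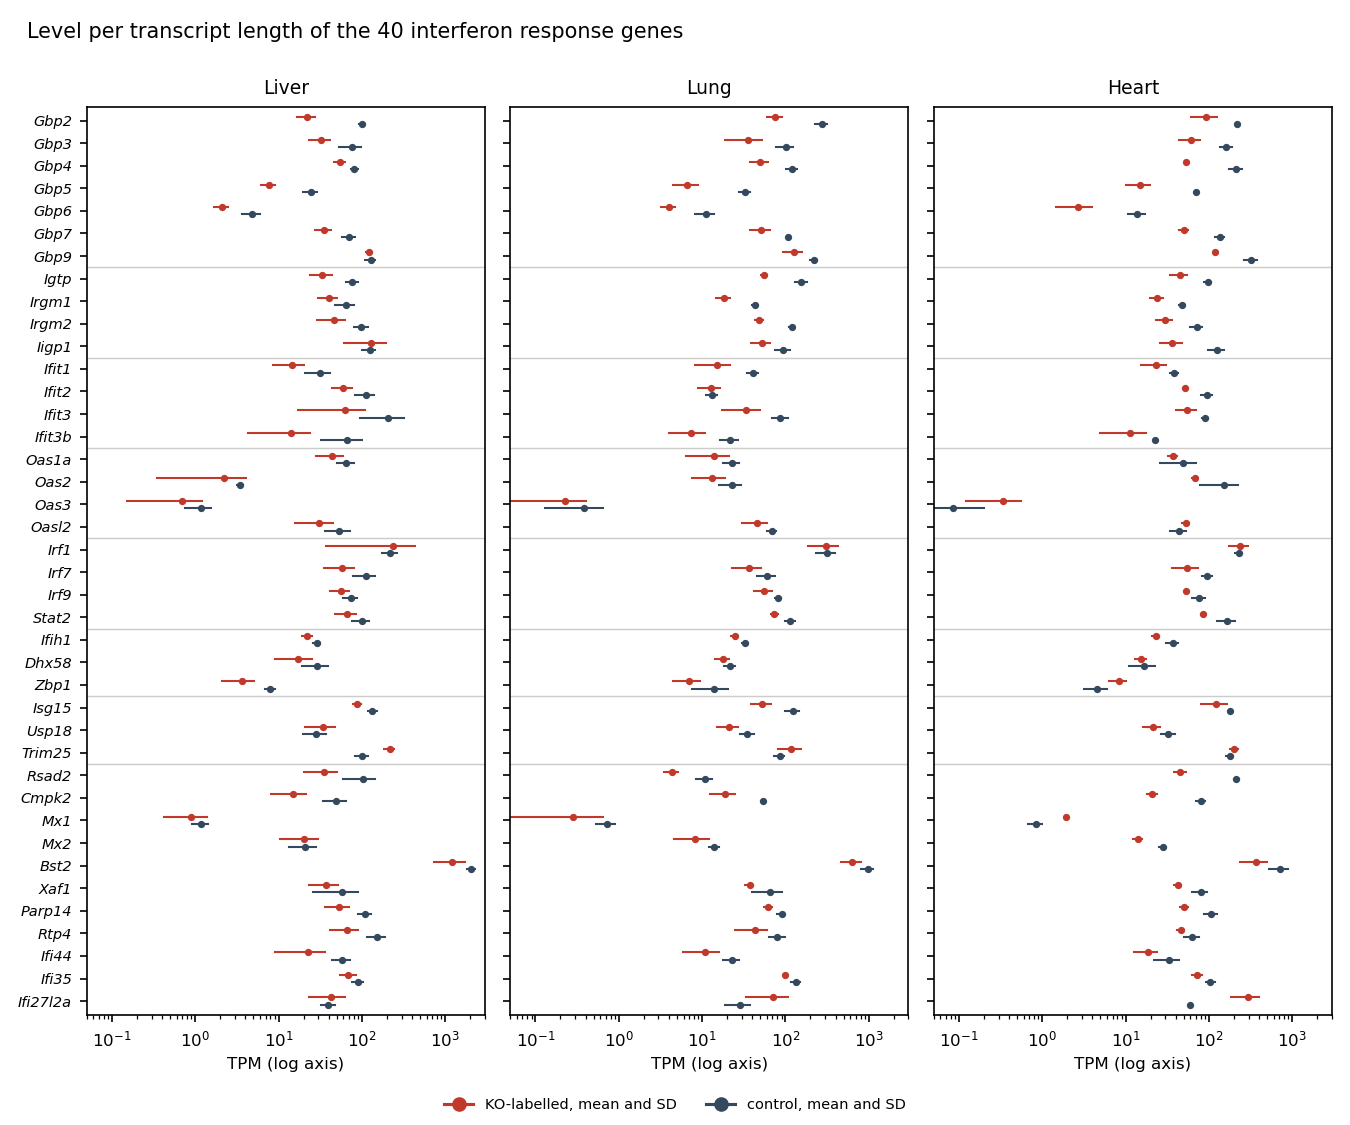
Mean TPM on a log axis with SD bars of the 40 genes in liver, lung and heart, red for KO-labelled and, just below, dark for control libraries, with bars cut at 0.05 TPM. Bst2 reaches 2049 TPM in control liver, and Mx1 and Oas3 stay under 2 TPM.

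Control endothelium also differed between the tissues. Between control lung and control liver 8 members were higher and 10 lower, where 24.6% and 22.4% of all genes were. Ifit2 and Rsad2 were lower in control lung (log2 −3.22 and −3.38, adjusted p = 2.86e-07 and 1.89e-06), and Oas2 was higher (log2 2.57, adjusted p = 0.000534). Between control heart and control liver 11 members were higher and 7 lower, where 23.8% and 23.9% of all genes were. All 7 guanylate-binding genes were among the higher ones, from log2 0.77 (Gbp7) to 1.39 (Gbp5), and Oas2 stood at log2 5.27 (adjusted p = 4.21e-06). Between control heart and control lung 7 were higher and 3 lower, where 13.5% and 16.1% of all genes were. These comparisons share control libraries, and the share of members is near the background.

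Upstream genes were read from lists of the pathway. Interferon ligand genes were nearly silent, with 63 counts over 21 genes in all 16 libraries and 11 genes without a count. Ifnb1 had 20 counts in all and Ifng had 12, and 0 ligand genes were tested. A count of 0 in a library allows a level of up to 0.0727 to 0.102 CPM. Among the 6 receptor genes, Ifnar1 rose in liver (log2 0.47, SE 0.11, adjusted p = 0.00806) and Ifnar2 fell in lung (log2 −0.55, SE 0.10, adjusted p = 0.00388). Ifngr1 had log2 changes of −0.02, −0.30 and −0.09 and passed in no tissue.

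The kinase Tyk2 fell in liver and heart (log2 −0.60 and −0.74, adjusted p = 0.00267 and 0.00325). Stat3, which carries cytokine signals such as those of interleukin 6, rose in each tissue (log2 0.46, 0.55 and 0.69, adjusted p = 0.0143, 0.0109 and 0.00546).

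Among the other IRF factors, Irf2 fell in liver (log2 −0.42, adjusted p = 0.0078) and Irf3 in heart (log2 −0.56, adjusted p = 0.0307), and of 6 such genes 0 passed in lung (1 at an unadjusted p under 0.05 and 1 by DESeq2). Nlrc5, the transactivator of MHC class I genes, fell in each tissue. It had 17.5, 21.1 and 18.8 CPM in KO-labelled and 70.4, 74.8 and 55.3 CPM in control liver, 51.6, 48.5 and 44.7 CPM in KO-labelled and 116, 106 and 86.3 CPM in control lung, and 33.4 and 26.2 CPM in KO-labelled and 122 and 74.9 CPM in control heart. Its log2 changes were −1.81, −1.09 and −1.73 (adjusted p = 1.75e-05, 0.00211 and 0.000238).

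Genes of the immunoproteasome and of peptide loading fell alongside it, 7 of 9 in liver, 5 in lung and 5 in heart. The shares of all genes that fell were 9.87%, 4.11% and 9.09%. Psmb8, Psmb9, Psmb10, Tap1 and Tap2 fell in each tissue, with Psmb9 at log2 −1.81, −1.19 and −1.53 (adjusted p = 0.000231, 0.00913 and 0.00383) and the peptide transporter Tap1 at log2 −1.19, −1.07 and −1.24. Among 11 negative regulators 1 rose in liver, 2 in lung and 3 in heart, and 0 fell in any tissue (at an unadjusted p under 0.05, 2 were lower in liver, 0 in lung and 2 in heart, and DESeq2 called 1, 0 and 1). Of all genes, 9.54% rose in liver, 4.35% in lung and 10.2% in heart, so the liver count is near the background. Socs2, a suppressor of cytokine signalling, rose in each tissue (log2 1.86, 1.21 and 0.68, adjusted p = 1.79e-05, 0.00142 and 0.0499).

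Of 8 further GTPase genes, 3 fell in liver, 3 in lung and 4 in heart, where 9.87%, 4.11% and 9.09% of all genes fell. Tgtp2 fell in each tissue (log2 −0.82, −0.94 and −2.40, adjusted p = 0.0225, 0.0221 and 0.000163), and shares sequence with its near copy Tgtp1. Gbp10 was under 3 CPM in every library. Gbp8, on chromosome 5 beside Gbp4, had log2 changes of 0.81, 0.25 and 1.19, and passed in no tissue. Of 62 other interferon-induced genes, 20 fell and 3 rose in liver, 9 fell and 1 rose in lung, and 20 fell and 6 rose in heart. The shares of all genes that rose were 9.54%, 4.35% and 10.2%. Samd9l fell in each tissue (log2 −0.80, −0.63 and −1.29). Over all pathway lists, which hold 119 tested genes of 140, 35 fell and 6 rose in liver, 21 fell and 5 rose in lung, and 32 fell and 13 rose in heart, against the shares of all genes given above.

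**Figure D5:**
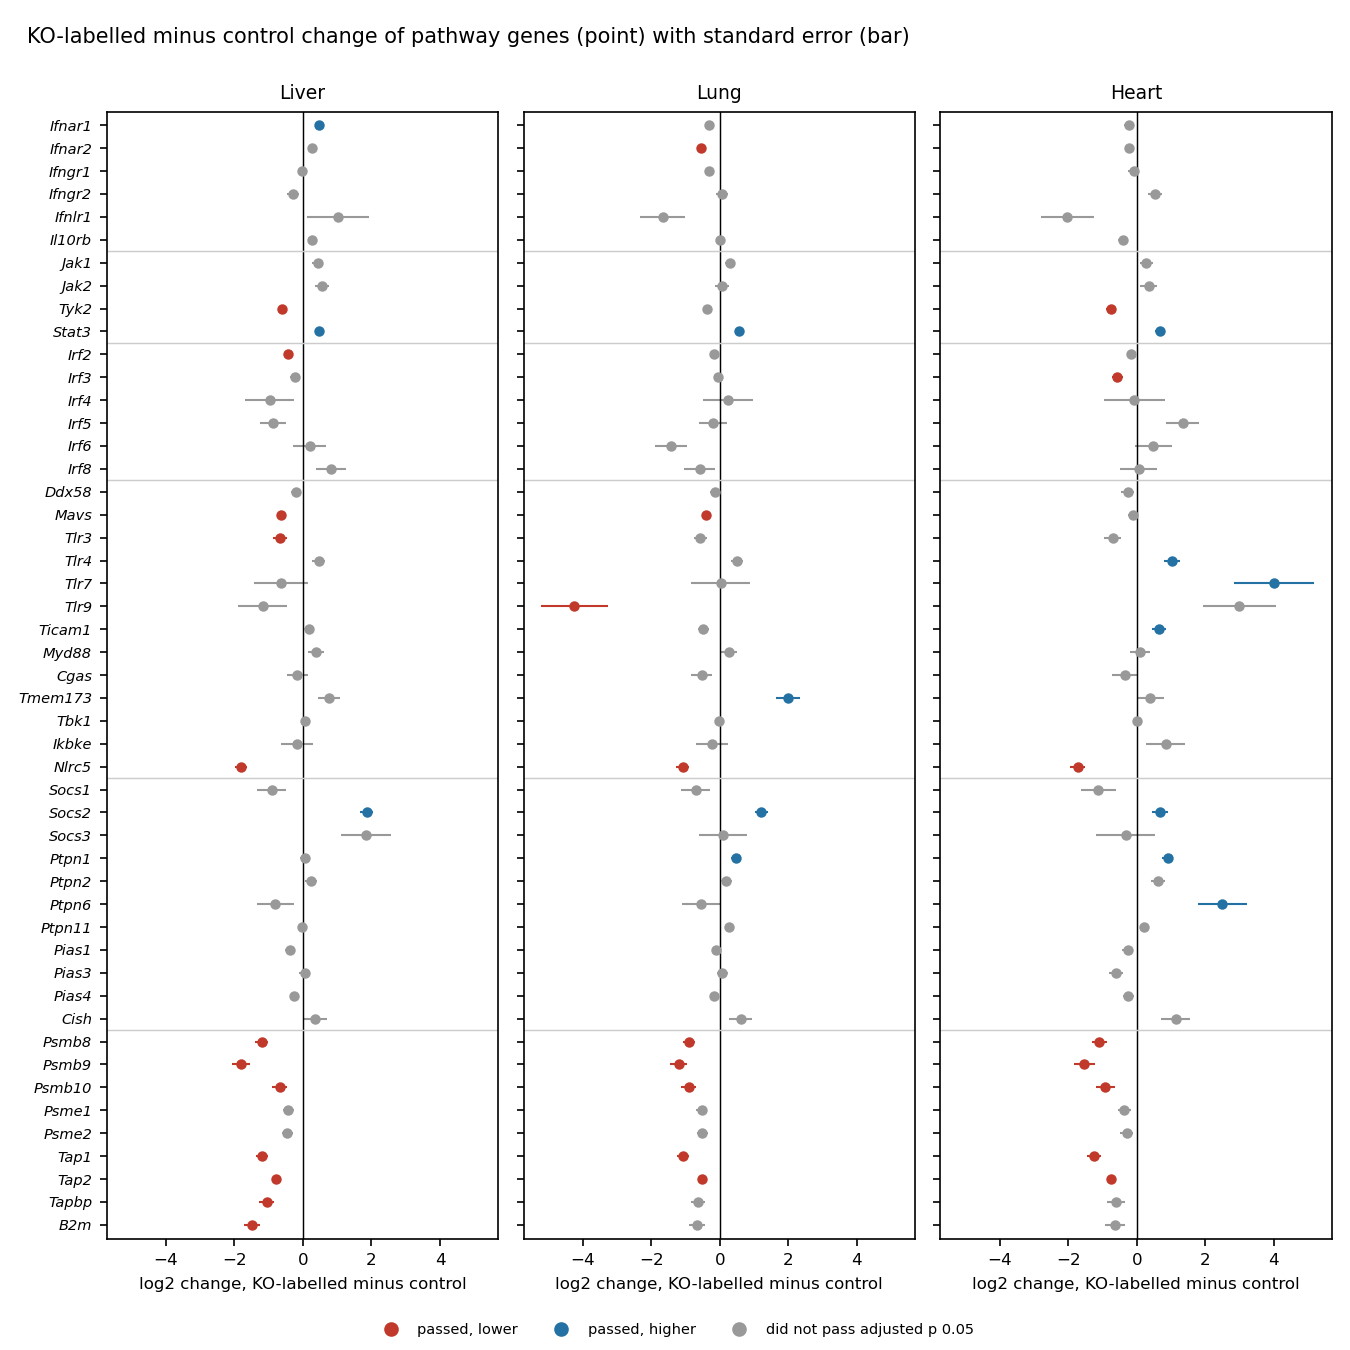
Log2 change (KO-labelled minus control) of upstream, regulatory and peptide-loading genes in liver, lung and heart on 1 shared axis, with points for estimates and bars for standard errors. Red points passed and were lower, blue passed and were higher, grey did not pass; Nlrc5, Psmb9 and Tap1 are lower in each tissue, and Stat3 and Socs2 are higher in each.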

How the data were processed

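The authors deposited a table of raw read counts, 1 whole number per gene and library. The submitters' processing notes name FastQC 0.11.5, STAR 2.7.6a and the build GRCm38. How reads were counted, with which strand setting and annotation, was not given in the sources used here. Per the labels' protocols, libraries used an unstranded or a stranded TruSeq kit, without saying which for which library, so counts of overlapping genes and of close paralogs are uncertain.

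Ensembl IDs were paired with symbols through GENCODE vM21. Genes passed edgeR's filterByExpr (minimum count 10, minimum total 15). The 16 libraries were fitted together by edgeR's quasi-likelihood method with TMM factors of 0.916 to 1.07 and no block. Adjusted p-values are Benjamini-Hochberg over all tested genes of a comparison, called at 0.05. CPM uses the effective library size, and TPM the exon-union length. Members, lists and tests were chosen with earlier results of these data known. Values in every library were given for called members, up to 4 a family by smallest adjusted p, and up to 4 genes of each pathway list, plus Nlrc5, receptors and ligands, could be named. Genes singled out beyond this were chosen after their values were seen. A gene of the pathway lists is not reported here and was left out of their counts.

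Alternatives were RLE size factors, no low-count filter, DESeq2, separate fits of the tissues compared, replicate blocks, a sex term and leaving out each library. The fit was tested on simulated data. Floors for a count of 0 (3 counts) cover counting error only. Versions were DESeq2 1.42.0, edgeR 4.0.16 and R 4.3.3.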

Additional observations from a re-analysis of the deposited data

Results flagged for a closer look

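For 3 of the 40 genes, where 8.32% of all genes did so, the change between KO-labelled and control libraries differed between heart and liver by a test of the difference itself. Heart minus liver, the difference of log2 changes was −1.32 for Gbp4 (adjusted p = 0.00645), −1.33 for Gbp9 (adjusted p = 0.0045) and −1.75 for Iigp1 (adjusted p = 0.0424), by edgeR's quasi-likelihood test. The count is near the share of all genes. All 3 are GTPase genes, and for each, both KO-labelled heart libraries lay below both control heart libraries, as for 29% of all tested genes. The 3 genes were picked by a more negative change in heart, so this separation follows in part from the choice. The call of Iigp1 ended in 14 of 23 alternatives. For Iigp1 the liver value depends on KO-labelled liver library 3, which had 314 CPM where the other KO-labelled liver libraries had 123 and 153 CPM.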

How the results depend on the processing

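No result changed direction with its call under the alternatives run. Calls that held in every alternative were 14 of 24 in liver, 11 of 16 in lung, 7 of 19 in heart, 30 of 32 for the mean over tissues and 2 of 3 for heart minus liver. Leaving out 1 library at a time gave 13 to 26 members lower in liver (median log2 −1.20 to −0.78), 11 to 21 lower and 0 to 2 higher in lung, and 7 to 20 lower and 0 to 1 higher in heart (median log2 −1.14 to −0.60). Members whose change differed numbered 0 to 1 for lung minus liver, 2 to 6 for heart minus liver and 0 to 2 for heart minus lung, and 9 to 20 and 5 to 12 for control heart against control liver and control lung. Over all genes these fits called 917 to 2087 in lung, 1793 to 4243 in heart, 807 to 1269, 711 to 1780 and 467 to 1671 for the 3 differences of change, and 3467 to 6242 for control heart against control lung. DESeq2 called 2514 genes in lung and 2072, 2673 and 2154 for those differences, with 1, 6 and 1 members in the differences and 1 higher in lung. Without the low-count filter 1 member was higher in lung and 6 differed for heart minus liver. The cause was not tested.

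Over all tested genes, replicate numbers did little to pair KO-labelled with control libraries within a tissue. Deviations of same-numbered libraries correlated at −0.051, 0.24 and 0.101 in liver, −0.0676, −0.0797 and 0.0328 in lung and 0.0465 in heart. Some members, such as Irf7 and Rtp4, were highest in library 2 of both groups in liver and lung, and others, such as Irf1, were not. Pairing over the members alone was not tested. Libraries of the same number were not compared across tissues. All libraries with description number 2 came from males and the others did not, so tissues may share animals, which the labels do not state. The mean over tissues and the differences between tissues treat the libraries as independent. Without a block 23 members were lower in liver, 16 in lung and 18 in heart. With the replicate block 29 members were lower in liver, 27 in lung and 23 in heart, and 1 differed for heart minus lung. With the replicate block by description number 29 were lower in liver, 29 in lung and 28 in heart. In that fit 2 and 3 differed for lung minus liver and heart minus lung. Irf9 and Xaf1, which passed in no tissue, passed in each with either block (adjusted p 0.00358 to 0.0218 for Irf9 and 0.00115 to 0.0394 for Xaf1), as did Bst2 in liver and heart. Libraries of 2 a group limit the heart results.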
